A study of Homo sapiens with 6 samples.

Results

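The replication-dependent histone genes encode the histone proteins that package newly copied DNA, and their RNA was compared between U-2 OS cells transfected with a control siRNA (siCTRL) and with an siRNA against SFPQ (siSFPQ). Members were chosen by name and not by measured values. They are the protein-coding genes named H1-1 to H1-5 and those whose symbols begin with H2AC, H2BC, H3C or H4C. The GENCODE annotation held 69 such genes, and 67 of them had a row among the 60664 gene rows of the count table. H2AC18 and H2AC19 were not analysed here. The 67 members comprised 5 H1, 15 H2A, 19 H2B, 13 H3 and 15 H4 genes. Of these, 54 lie in the histone cluster of chromosome 6 (HIST1) and 11 on chromosome 1. H4C16 lies on chromosome 12 and H2BC12L on chromosome 21. On chromosome 1, H2AC25 (chr1:228434777-228457873) and H2BC26 (chr1:228458103-228463104) lie far from the other members and were not tested.

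U-2 OS is an established human osteosarcoma cell line, labelled polyploid. Both groups carried the same line and the same siRNA dose of 30 nM, with 3 replicates each, and the time between transfection and RNA extraction is not given in the sources used here. SFPQ is a nuclear RNA-binding protein that also binds R-loops. Libraries were prepared from polyadenylated RNA.

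During S phase, a cell must make histones in step with its DNA. The core histones H2A, H2B, H3 and H4 form the nucleosome and H1 binds the linker between nucleosomes. Most replication-dependent histone messages have no introns and no poly(A) tail. They end just after a short stem-loop that is bound by SLBP and cut with the help of the U7 snRNP, and transcription is driven by NPAT at nuclear bodies that form over the gene clusters. A library made from polyadenylated RNA therefore reads only those molecules that carry a tail, through read-through to a downstream poly(A) site or through added adenines, together with carried-over RNA. In these libraries, less histone RNA and a smaller polyadenylated share of it cannot be told apart, and neither can fewer cells in S phase and less RNA per cell.

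The stem-loop is shown first because it sets the tail-less end of these messages. It was searched as 16 bases that start with GG, with a loop of 4 bases whose letters are TNTN and a stem of 6 pairs of which at most 1 is a G-T pair. This form was found in the 150 bases after a stop codon in 66 of 67 members and in 112 of 19950 protein-coding genes (0.561%), members included. The definition was widened after the members' sequences had been seen. A narrower form, with the loop TTNC and 6 exact pairs, was found in 48 members and in 53 genes in all (0.266%). H2BC12L was the 1 member without a match in this window. The genomic letters of GRCh38 are given 5′ to 3′ on the coding strand, with the stem-loop in capitals and 5 flanking bases on each side, for genes whose values are described further on.
H1-2: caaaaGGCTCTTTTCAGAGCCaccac
H2BC12: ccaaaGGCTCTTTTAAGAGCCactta
H2BC11: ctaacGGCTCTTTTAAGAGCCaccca
H2AC11: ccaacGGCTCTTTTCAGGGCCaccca
H2AC20: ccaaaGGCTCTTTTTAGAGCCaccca
H3C10: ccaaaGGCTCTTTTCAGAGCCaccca
H3C6: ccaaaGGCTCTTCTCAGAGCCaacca
H4C9: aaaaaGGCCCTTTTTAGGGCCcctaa
H4C16: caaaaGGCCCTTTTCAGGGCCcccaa
The form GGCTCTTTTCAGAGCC was the most frequent, in 38 members of the H1, H2A, H2B and H3 types. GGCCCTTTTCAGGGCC stood in 10 H4 genes and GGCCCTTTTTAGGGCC in 4 H4 genes. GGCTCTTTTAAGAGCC stood in 8 members, among them H2BC4, H2BC5, H2BC11 and H2BC12, and the other 6 forms stood in 1 member each. Grouping the members by these forms was done after their values had been seen. The lower calls described below fell in 4 of 20 tested members with the most frequent form, 4 of 6 with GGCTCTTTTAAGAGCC, 2 of 8 with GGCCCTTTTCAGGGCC and 3 of 4 with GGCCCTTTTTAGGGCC. Of all tested genes 22.1% were lower, and 34.5% of those with a mean of at least 1 CPM (defined below). The forms also differed in level. In the same order, 6 of the 20, 5 of the 6, 3 of the 8 and 2 of the 4 reached 1 CPM. The part of level in these counts was not tested.

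H2A and H2B genes often lie head to head and share the DNA between their starts. Of the members, 12 such pairs had starts less than 1000 bases apart, at distances of 170 to 251 bases. The stretch between the starts is shown for 3 pairs whose levels are described below, from the RefSeq promoter table on GRCh38.p14 and on the strand of the H2B gene, so that the H2B start follows the last base. Capitals mark the octamer ATTTGCAT, a site known to be bound by the factor OCT1 (POU2F1). They also mark the CCAAT box, a site of NF-Y, wherever it stands on either strand. The TATA box, searched as TATAAA on both strands, is in capitals as well, and its matches on opposite strands can overlap.
H2BC11 and H2AC11, chr6:27132796-27133042: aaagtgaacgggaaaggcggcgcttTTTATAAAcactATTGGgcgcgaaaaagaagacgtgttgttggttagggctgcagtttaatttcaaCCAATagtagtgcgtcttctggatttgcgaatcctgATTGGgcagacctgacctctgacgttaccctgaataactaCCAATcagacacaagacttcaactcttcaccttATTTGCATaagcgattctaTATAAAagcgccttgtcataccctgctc
H2BC12 and H2AC12, chr6:27146856-27147105: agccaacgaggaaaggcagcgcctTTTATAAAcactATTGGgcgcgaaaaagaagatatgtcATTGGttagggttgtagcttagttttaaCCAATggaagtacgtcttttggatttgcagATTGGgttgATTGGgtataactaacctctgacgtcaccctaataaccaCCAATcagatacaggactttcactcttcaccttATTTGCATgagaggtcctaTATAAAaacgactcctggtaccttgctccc
H2BC21 and H2AC20, chr1:149886683-149886917: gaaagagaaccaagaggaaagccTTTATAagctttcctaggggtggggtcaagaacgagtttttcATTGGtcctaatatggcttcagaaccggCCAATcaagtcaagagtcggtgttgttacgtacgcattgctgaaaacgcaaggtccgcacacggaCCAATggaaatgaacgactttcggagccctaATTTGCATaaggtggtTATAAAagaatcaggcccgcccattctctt
These stretches lie on the minus strand. The 3 stretches each held the octamer close to the H2B start, followed by TATAAA. RefSeq promoters were matched for 61 members, and their 250 bases before the start were searched on both strands. Where the table gave several starts for a gene, the one nearest to the annotated start was taken, and for 1 member, H2BC6, it lay over 1000 bases away. The octamer stood in 14 of 18 H2B and 11 of 14 H2A promoters and in none of the 5 H1, 11 H3 and 13 H4 promoters, against 1.63% of all 35116 promoters in the table. CCAAT stood in 51 of 61 member promoters against 32.0% of all, and was seen in only 3 of 13 H4 promoters. TATAAA stood in 41 of 61 member promoters against 10.7% of all. Paired genes share much of these windows, so their matches are not separate. Among H2B genes, 4 of 11 tested members with the octamer and 1 of 3 without it were lower in siSFPQ, against 22.1% of all tested genes.

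The libraries held 46142855, 47119203 and 46830736 counts in siCTRL and 43469321, 45511855 and 45543610 in siSFPQ. At these totals, 3 counts correspond to 0.0637 to 0.069 CPM, the counts of a gene per 1000000 counts of its library. SFPQ itself, the siRNA target, had 22381, 23139 and 21811 normalized counts in siCTRL and 3238, 3780 and 3108 in siSFPQ (log2 fold change −2.73, SE 0.0498, adjusted p = 6.34e-30, quasi-likelihood test of edgeR, adjusted by the Benjamini-Hochberg method). Normalized counts are counts scaled to a common effective library size. All adjusted p-values below come from that test over 29022 genes. A bone or mesenchymal origin was visible in part: 5 of 9 mesenchymal or osteoblast markers reached 1 CPM, with a summed level of 5966 to 6296 CPM in siCTRL and 5468 to 5490 CPM in siSFPQ, while SP7 and IBSP were at or near 0. The 4 epithelial markers summed to 21.9 to 23.5 CPM in siCTRL and 11.7 to 12.7 CPM in siSFPQ. Of these, KRT14 was lower (log2 fold change −1.82), CDH1 (0.76) and KRT5 (0.59) were higher and EPCAM passed no threshold (−0.18). The 3 blood markers summed to at most 0.877 CPM. PTPRC, the leukocyte marker, was lower in siSFPQ at 0.46 CPM (log2 fold change −1.61), and BGLAP, the bone marker osteocalcin, rose from at most 1 count to 5 or 6 counts per library. The part of these marker levels in the histone results was not tested.

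Histone genes were lower in the siSFPQ libraries. The 67 members together held 445, 440 and 426 CPM in siCTRL and 354, 339 and 333 in siSFPQ. As normalized counts, the sum was 20424 ± 386 in siCTRL and 15320 ± 497 in siSFPQ (SD, n = 3), a log2 ratio of −0.41. Every siSFPQ library lay below every siCTRL library in this sum. A few genes carried most of it. H1-2 alone held 28.7% of the siCTRL member counts, the top 4 members held 67.1% and the top 9 held 91.5%, and all of these 9 were called lower.

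Of the 67 members, 42 had the 10 counts in total that the test needed. Another 15 members were at 0 in all 6 libraries and 10 had between 1 and 9 counts in total, so a difference in those was not detectable at this depth. At an adjusted p under 0.05, 15 of the 42 tested members (35.7%) were lower in siSFPQ, against 22.1% of all tested genes. H4C16 was the 1 member called higher (2.38%), against 22.4% of all tested genes. The other 26 members passed no threshold. All siSFPQ libraries lay below all siCTRL libraries in 16 members (38.1%) against 25.4% of all genes, and above in 2 members (4.76%) against 26.9%. The median log2 fold change over the 42 tested members was −0.33, beside 0.02 over all genes tested, with quartiles at −0.38 and 0.48. It was −0.21 without siSFPQ replicate 2, and ranged from −0.41 to −0.21 over the fits that left out 1 library.

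The fold changes were small. No member was both called and past a log2 fold change of 1.5 in either direction, against 4.77% of all genes for lower calls and 5.54% for higher calls. This count was 0 with edgeR and with DESeq2, and 0 at an unadjusted p under 0.05 as well, at which 16 members were lower and 2 higher with no fold threshold. The lower members ran from a log2 fold change of −0.22 for H2BC21 to −1.23 for H4C14, with a median of −0.59. In 4 of the 6 fits that left out 1 library, 1 member passed both thresholds. These were H2BC14 (higher) without siCTRL replicate 2, H1-4 (lower) without siSFPQ replicate 1, H2AC12 (higher) without siSFPQ replicate 2 and H4C14 (lower) without siSFPQ replicate 3.

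Most lower calls fell in the more abundant members. The 20 members with a mean of at least 1 CPM included 13 lower (65.0%) and 1 higher, with a median log2 fold change of −0.43. Among all 15641 genes tested at that level, 34.5% were lower and 30.1% higher, with a median of −0.02. The 22 tested members under 1 CPM included only 2 lower calls, H4C11 and H4C15, and their median was 0.02. This division of the calls at 1 CPM was made after the values had been seen.

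**Figure D1:**
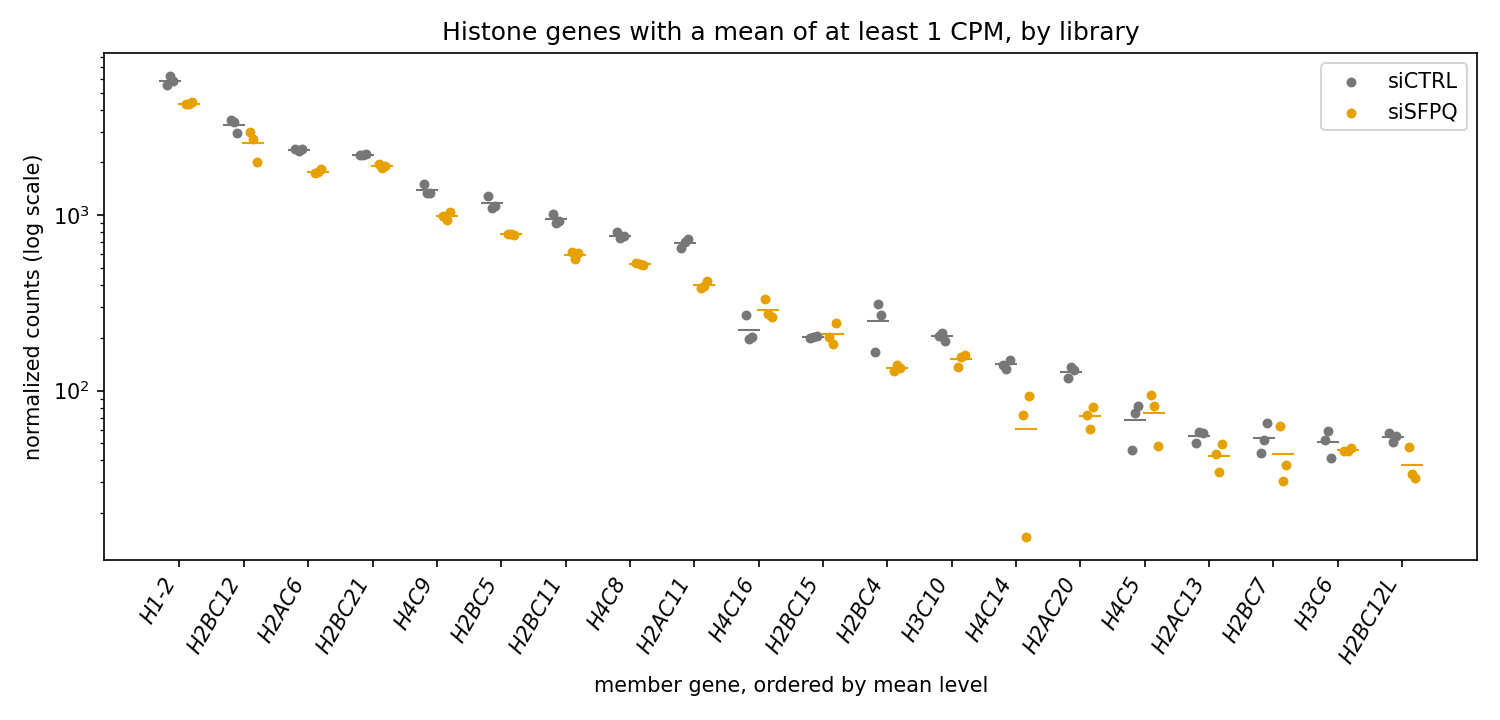
Normalized counts on a log scale for the 20 histone genes with a mean of at least 1 CPM, ordered by mean level. Each point is 1 library (3 siCTRL in grey, 3 siSFPQ in orange) and the short bars are group means. The siSFPQ points lie below the siCTRL points for 14 of the genes, and H4C16 is the gene called higher.

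The H1 linker histones came down to a single gene in these libraries. H1-2 (ENSG00000187837, chr6:26055740-26056470) encodes a widely expressed linker histone. It had 5548, 6222 and 5794 normalized counts in siCTRL and 4302, 4305 and 4402 in siSFPQ (log2 fold change −0.43, SE 0.0419, adjusted p = 1.36e-10, edgeR). The groups did not overlap, and per length H1-2 stood at 152 CPM per kb, the highest level of any member. H1-4, another linker histone, had 29.1, 23 and 15 normalized counts in siCTRL and 52.6, 2.94 and 7.89 in siSFPQ. Its siSFPQ libraries lay on both sides of the siCTRL values (log2 fold change −0.10, adjusted p = 0.909, edgeR). H1-1 had at most 2 counts in any library, and H1-3 and H1-5 held 1 count each over all libraries, so these were not tested. Without H1-2 the summed H1 level had a log2 ratio of −0.035.

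The H2A genes, which encode the partner of H2B in the nucleosome, included 3 lower calls among 9 tested, against 22.1% of all tested genes. H2AC6 (ENSG00000180573, chr6:26124145-26139116) had 2372, 2321 and 2371 normalized counts in siCTRL and 1733, 1754 and 1837 in siSFPQ (log2 fold change −0.41, SE 0.0474, adjusted p = 7.44e-09, edgeR). H2AC11 (ENSG00000196787, chr6:27133043-27133535) had 649, 701 and 737 in siCTRL and 384, 395 and 419 in siSFPQ (log2 fold change −0.80, SE 0.0817, adjusted p = 4.61e-10, edgeR). H2AC20 (ENSG00000184260, chr1:149886918-149887411) had 118, 136 and 131 in siCTRL and 72.2, 60.7 and 80.9 in siSFPQ (log2 fold change −0.85, SE 0.17, adjusted p = 8.68e-05, edgeR). In each of these 3 genes all siSFPQ libraries lay below all siCTRL libraries. The exons of H2AC6 overlap another annotated gene (ENSG00000291336), and with H2AC6 and the other overlapping members left out the summed H2A level had a log2 ratio of −0.74 in place of −0.49. Most other H2A genes held few counts, and 6 of 15 were not tested.

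H2B, which pairs with H2A, was the type with the most counts and held 40.5% of the siCTRL member total. H2BC12 (ENSG00000197903, chr6:27146361-27146855) had 3503, 3389 and 2928 normalized counts in siCTRL and 2979, 2717 and 2005 in siSFPQ (log2 fold change −0.35, SE 0.0778, adjusted p = 0.000327, edgeR). Its groups overlapped, since siSFPQ replicate 1 lay above siCTRL replicate 3, and the call was lost with DESeq2 (adjusted p = 0.115). Without siSFPQ replicate 3 its log2 fold change was −0.19. H2BC21 (ENSG00000184678, chr1:149884459-149886682) had 2203, 2213 and 2234 in siCTRL and 1971, 1849 and 1910 in siSFPQ (log2 fold change −0.22, SE 0.0473, adjusted p = 0.000299, edgeR). That was the smallest of the lower calls, with groups that did not overlap.

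H2BC5 (ENSG00000158373, chr6:26158122-26171349) had 1283, 1098 and 1133 normalized counts in siCTRL and 782, 784 and 775 in siSFPQ (log2 fold change −0.59, SE 0.0666, adjusted p = 4.8e-09, edgeR). H2BC4 (ENSG00000180596, chr6:26086317-26123926) had 166, 311 and 271 in siCTRL and 129, 140 and 134 in siSFPQ (log2 fold change −0.89, SE 0.157, adjusted p = 1.43e-05, edgeR). Both genes had lower values in every siSFPQ library. The annotated span of H2BC4 is long, its exons overlap the iron regulator HFE, and whether the counting used strand is not given in the sources used here, so its reads may include those of a neighbour. H2BC15 (ENSG00000233822, chr6:27838545-27855709) stood at 199, 202 and 206 in siCTRL and 202, 184 and 242 in siSFPQ, with a log2 fold change of 0.05 (adjusted p = 0.793, edgeR). Its groups overlapped. In all, 5 of 15 tested H2B genes were lower and none was called higher with edgeR or DESeq2. Of all tested genes, 22.1% were lower and 22.4% higher (edgeR).

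The H3 genes, whose protein carries many of the regulatory histone marks, were the scarcest type at 1.52% of the siCTRL member counts. Only 4 of 13 were tested. H3C10 (ENSG00000278828, chr6:27810051-27811300) had 204, 214 and 192 normalized counts in siCTRL and 137, 156 and 160 in siSFPQ (log2 fold change −0.43, SE 0.127, adjusted p = 0.00551, edgeR). The groups did not overlap, but the call was lost without siSFPQ replicate 1 (adjusted p = 0.054). H3C6 had 52.1, 59.0 and 41.1 in siCTRL and 45.4, 45.0 and 47.3 in siSFPQ (adjusted p = 0.676, edgeR). H3C2 had 38.1, 33.0 and 36.1 in siCTRL and 46.4, 26.4 and 27.6 in siSFPQ (adjusted p = 0.829, edgeR). Both overlapped between the groups. The 3 H3 genes on chromosome 1 held at most 7 counts in any library, and H3C14 and H3C15 share 369 of their annotated runs of 150 bases, so reads of one cannot be told from the other.

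The H4 genes, nearly all of which encode the same protein, included 5 lower calls among 12 tested, against 22.1% of all tested genes. H4C9 (ENSG00000276180, chr6:27139282-27139678) had 1507, 1334 and 1344 normalized counts in siCTRL and 985, 936 and 1042 in siSFPQ (log2 fold change −0.50, SE 0.0622, adjusted p = 3.35e-08, edgeR). H4C8 (ENSG00000158406, chr6:26277609-26285638) had 802, 739 and 759 in siCTRL and 531, 529 and 519 in siSFPQ (log2 fold change −0.54, SE 0.0743, adjusted p = 2.09e-07, edgeR). Neither overlapped between the groups. The exons of H4C8 overlap another annotated gene (ENSG00000289447), so its reads may include those of a neighbour. H4C5 stood at 46.1, 75 and 82.2 in siCTRL and 94.9, 81.2 and 48.3 in siSFPQ (log2 fold change 0.14, adjusted p = 0.679, edgeR), with full overlap.

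H4C14 (ENSG00000270882, chr1:149832657-149839767) had 140, 133 and 150 normalized counts in siCTRL and 72.2, 14.7 and 93.7 in siSFPQ (log2 fold change −1.23, SE 0.27, adjusted p = 0.00029, edgeR). This was the lowest fold change of any called member. Its siSFPQ libraries varied widely and the call was lost with DESeq2 (adjusted p = 0.15). Without siSFPQ replicate 2 its log2 fold change was −0.78. H4C15 is a near-identical copy, and all 1729 of its annotated runs of 150 bases also stand in H4C14, so the division of reads between the copies is uncertain. Together, the 2 copies had 162, 163 and 167 in siCTRL and 80.4, 23.5 and 108 in siSFPQ. The lower call of H4C15 on its own (adjusted p = 0.038, edgeR) was lost with DESeq2, with library size alone and without siCTRL replicate 2 (0.165), siSFPQ replicate 1 (0.141) or siSFPQ replicate 2 (0.117). H4C11, which shares 88.8% of such runs with H4C12, was lower at an adjusted p of 0.0274 (edgeR). It lost the call with DESeq2 and in every fit without 1 library other than the fit without siCTRL replicate 1, at adjusted p from 0.0514 to 0.11. H4C12 had 23.0, 19.0 and 22.1 normalized counts in siCTRL and 10.3, 16.6 and 36.5 in siSFPQ (log2 fold change −0.01, adjusted p = 0.996, edgeR). The division of reads between H4C11 and H4C12 is also uncertain.

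Both members outside the clusters were tested. H4C16 (ENSG00000197837, chr12:14767999-14771131), an H4 gene far from the clusters, had 269, 198 and 202 normalized counts in siCTRL and 331, 272 and 262 in siSFPQ (log2 fold change 0.37, SE 0.123, adjusted p = 0.0133, edgeR). The groups overlapped, and the call was lost without siCTRL replicate 2 (0.0706), siCTRL replicate 3 (0.0697) or siSFPQ replicate 1 (0.137). H2BC12L (ENSG00000234289, chr21:43565182-43565648), an H2B-like gene, had 57.1, 51.0 and 55.1 in siCTRL and 47.4, 33.3 and 31.6 in siSFPQ (log2 fold change −0.54, adjusted p = 0.0779, edgeR). Its groups did not overlap, and the adjusted p was 0.0459 without siSFPQ replicate 1.

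**Figure D2:**
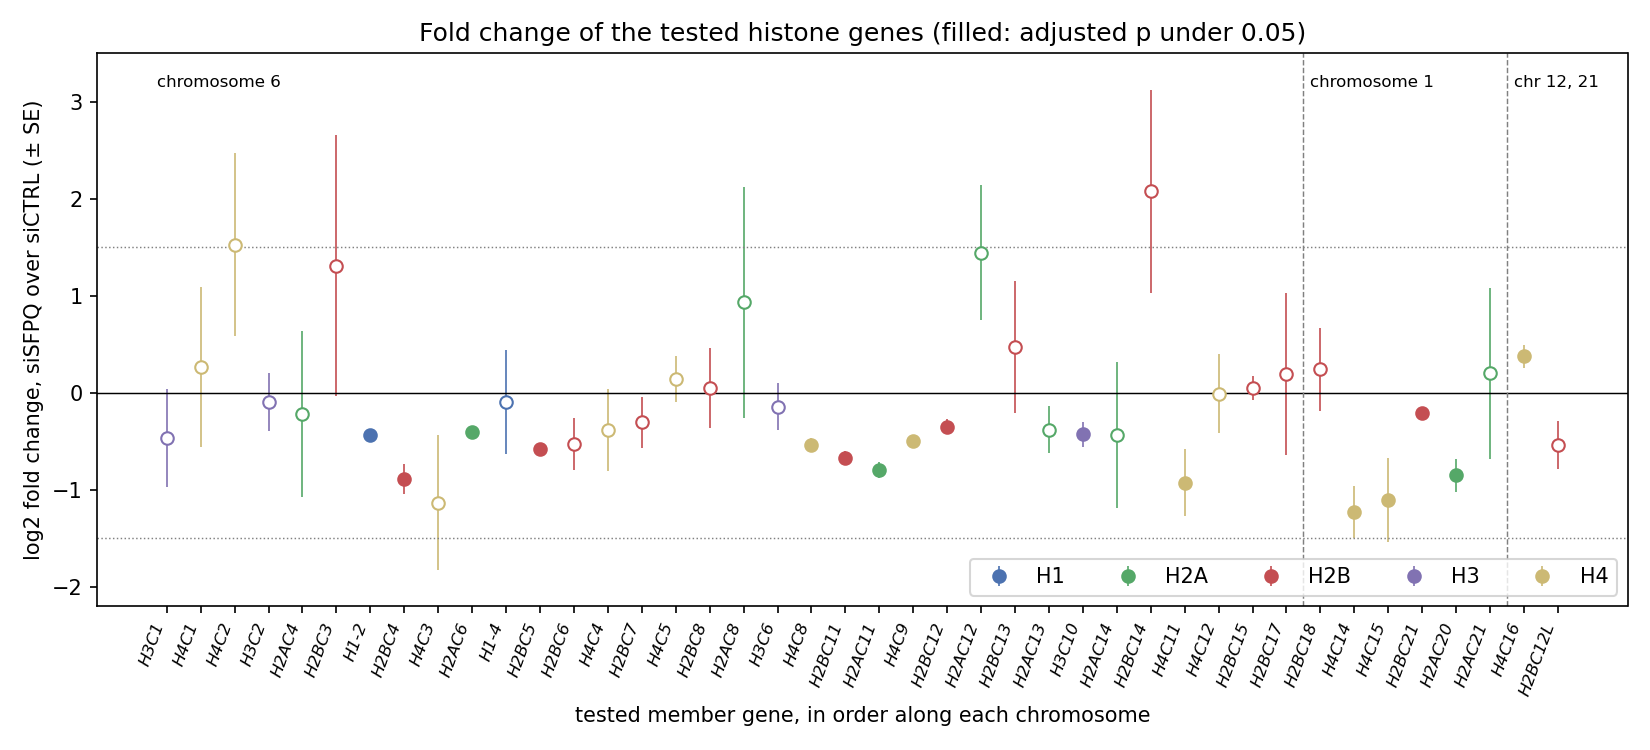
Log2 fold change of siSFPQ over siCTRL for the 42 tested histone genes in order along each chromosome, coloured by histone type. Bars are ± SE, filled points passed an adjusted p of 0.05 and dotted lines mark a log2 fold change of 1.5 in each direction. The filled points below 0 number 11 on chromosome 6 and 4 on chromosome 1, and the 1 filled point above 0 is H4C16 on chromosome 12.

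By type, all 5 summed levels were lower in siSFPQ without overlap between the groups. H1 summed to 5878 ± 339 normalized counts in siCTRL and 4359 ± 51.8 in siSFPQ (SD, n = 3), a log2 ratio of −0.43. H2A summed to 3259 ± 51.1 and 2320 ± 79.0 (log2 ratio −0.49), and H2B to 8268 ± 335 and 6373 ± 536 (log2 ratio −0.38). H3 summed to 310 ± 15.5 and 249 ± 8.52 (log2 ratio −0.32), and H4 to 2707 ± 149 and 2018 ± 101 (log2 ratio −0.42). The order of these ratios was not tested. Of the member total, H1 took 27.1% to 30.1% in siCTRL and 27.4% to 29.5% in siSFPQ, and H2B took 39.6% to 41.8% and 38.9% to 43.4%. H3 took 1.48% to 1.58% in siCTRL and 1.61% to 1.64% in siSFPQ, the only type whose shares did not overlap between the groups.

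By cluster, the chromosome 6 members held 86.3% of the siCTRL counts and summed to 17616 ± 392 in siCTRL and 12915 ± 402 in siSFPQ (log2 ratio −0.45). Of its 34 tested members, 11 were lower and none higher with edgeR or DESeq2, with a median log2 fold change of −0.33. For both clusters, the shares over all tested genes were 22.1% lower and 22.4% higher (edgeR). At a mean of at least 1 CPM they were 34.5% and 30.1%. The chromosome 1 members summed to 2530 ± 26.8 and 2079 ± 108 (log2 ratio −0.28). Of its 6 tested members, 4 were lower, with a median of −0.53. The sum and the median differ because H2BC21, with its small change, held most of the chromosome 1 counts. With H2BC21 left out, an alternative added after the values had been seen, chromosome 1 summed to 298, 325 and 319 in siCTRL and 190, 108 and 209 in siSFPQ (log2 ratio −0.89). The ratio of the chromosome 6 sum to the chromosome 1 sum was 7.09, 7.07 and 6.73 in siCTRL and 6.18, 6.56 and 5.92 in siSFPQ. These ratios did not overlap between the groups, and the smallest p that an exact two-sided permutation test of 3 against 3 libraries allows is 0.1, so no test was made.

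**Figure D3:**
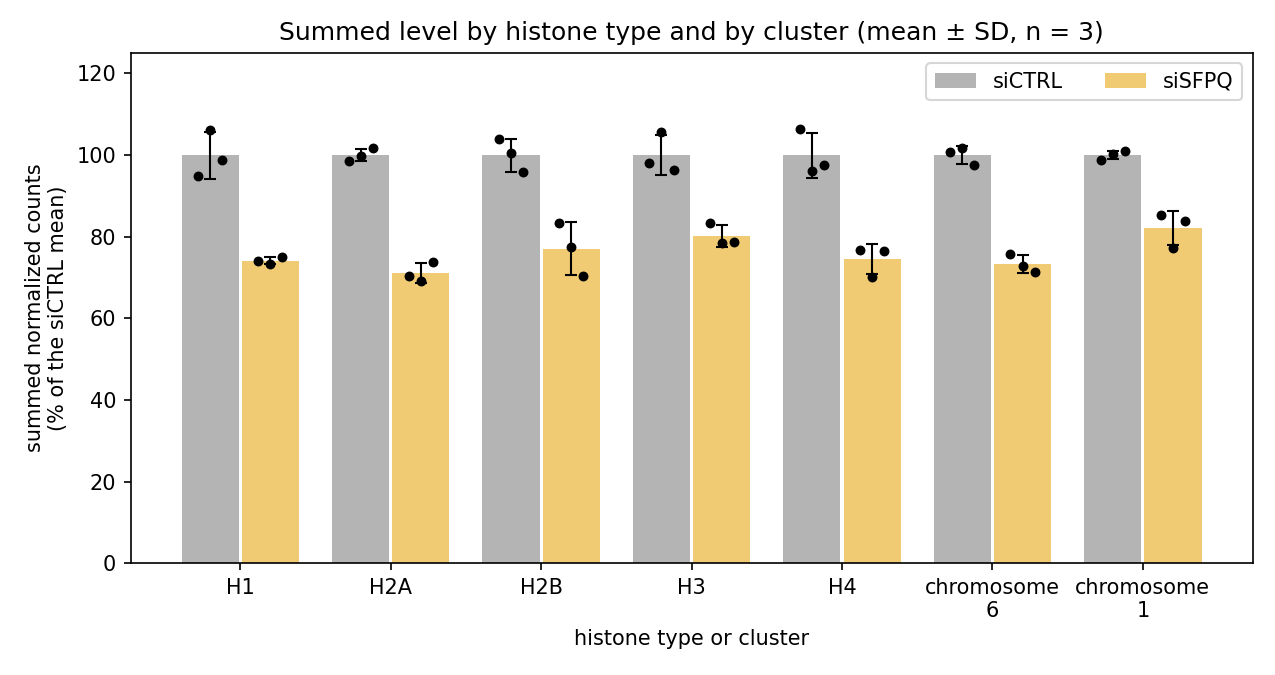
Summed normalized counts of the histone genes by type and by cluster, as percent of the siCTRL mean. Bars are means, error bars are SD (n = 3) and points are libraries. In all 7 groups the 3 siSFPQ libraries lie below the 3 siCTRL libraries.

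Paired H2A and H2B genes were often read at very unequal levels. Both genes were tested in 7 of the 12 pairs, and both were lower in 3 of these (H2AC6 with H2BC4, H2AC11 with H2BC11, and H2AC20 with H2BC21). Of all single genes tested, 22.1% were lower, and 34.5% of those at 1 CPM or more. In these 3 pairs both genes had a mean of at least 1 CPM. Each of the other tested pairs held a gene under 1 CPM. The part of level in this count was not tested. H2BC11 (ENSG00000124635, chr6:27125897-27132795) had 1021, 900 and 928 normalized counts in siCTRL and 618, 566 and 606 in siSFPQ (log2 fold change −0.67, SE 0.0725, adjusted p = 1.56e-09, edgeR). Its partner H2AC11 had a log2 fold change of −0.80, and per length the pair stood at 16.2 and 24.3 CPM per kb. H2BC21 and H2AC20 had log2 fold changes of −0.22 and −0.85 and levels of 20.3 and 4.42 CPM per kb. The most unequal pair was H2BC12 at 129 CPM per kb and H2AC12 at 0.453 CPM per kb. H2AC12 had 4.01, 7 and 4.01 normalized counts in siCTRL and 32.0, 3.91 and 5.92 in siSFPQ, and 1 library held most of them. The stretches between the starts of the H2BC11 and H2BC12 pairs, printed above, hold the same octamer and TATAAA next to the H2B start.

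The annotated 3′ end separates the members further. In 17 members the annotation runs 479 to 37207 bases past the stop codon, beyond the stem-loop, and in 50 members it ends 29 to 84 bases past it. This division at 100 bases was made after the values had been seen. AATAAA or ATTAAA, the letters of the usual poly(A) signal, stood in the last 50 bases of 11 of the 17 long members and 2 of the 50 short members, against 72.3% of protein-coding genes. The long members, among them H2AC6, H2BC5, H2BC11, H2BC21 and H4C8, held 42.2% of the siCTRL member counts and the short members, among them H1-2, H2BC12, H4C9 and H2AC11, held 57.8%. The long members summed to 8801, 8476 and 8577 in siCTRL and 6609, 6363 and 6646 in siSFPQ (log2 ratio −0.40). The short members summed to 11758, 12248 and 11412 in siCTRL and 9278, 8743 and 8319 in siSFPQ (log2 ratio −0.43). Lower calls fell in 9 of 14 tested long members and 6 of 28 tested short members, against 22.1% of all tested genes. The short members thus lay near the share of all genes. At a mean of at least 1 CPM the counts were 8 of 11 and 5 of 9, against 34.5% of all genes at that level. The annotated ends are not measured ends, and which RNA form the reads came from was not tested.

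Of 26 listed factors that cut and turn over histone mRNA, 25 were tested, 7 were higher (28.0%) and 7 lower (28.0%), with a median log2 fold change of −0.03. These shares lay near those of all genes tested at 1 CPM or more, 30.1% higher and 34.5% lower, which is the level of every tested gene in this list and in the lists that follow. SLBP, the stem-loop binding protein, had 2621, 2742 and 2600 normalized counts in siCTRL and 2545, 2441 and 2542 in siSFPQ (log2 fold change −0.08, adjusted p = 0.146, edgeR). LSM10 (log2 fold change 0.03), LSM11 (−0.03) and ZNF473 (0.12), which belong to or join the U7 snRNP, passed no threshold, and U7 RNA itself (RNU7-1) was not tested. CASP8AP2, a component of histone locus bodies, was lower (−0.15), as was UPF1, the helicase needed for histone mRNA decay (−0.28). ERI1, the exonuclease that trims the stem-loop, was higher (0.13). CTIF, a translation factor of cap-binding-complex-bound mRNA, was past both thresholds with 2912, 3215 and 2977 in siCTRL and 691, 649 and 659 in siSFPQ (log2 fold change −2.19, SE 0.0553, adjusted p = 4.65e-26, edgeR).

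Among 11 regulators of histone gene transcription and S-phase entry, 9 were lower (81.8%) and 1 higher (9.09%), with a median of −0.24, beside the 34.5% and 30.1% of all genes at that level. NPAT, the coactivator of the clusters, had 2025, 2236 and 2066 normalized counts in siCTRL and 1886, 1922 and 1864 in siSFPQ (log2 fold change −0.16, SE 0.0495, adjusted p = 0.00937, edgeR). HINFP, the factor for H4 promoters, had a log2 fold change of 0.13 (adjusted p = 0.167, edgeR). POU2F1, which encodes OCT1, was lower (−0.20). Of 15 factors for poly(A) signal cleavage, 5 were higher (33.3%) and 4 lower (26.7%), with a median of 0.01, again near the shares of all genes at that level.

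Genes of DNA replication were mostly lower as well. Of 26 listed, 19 were lower (73.1%) and 2 higher (7.69%), with a median of −0.29, beside 34.5% and 30.1% of all genes at 1 CPM or more. POLA1, the catalytic subunit of the priming DNA polymerase, had 2673, 2574 and 2631 normalized counts in siCTRL and 711, 767 and 709 in siSFPQ (log2 fold change −1.85, SE 0.0541, adjusted p = 2.45e-24, edgeR) and was the 1 gene of this list past both thresholds. RRM2, which makes deoxynucleotides, and GINS1, part of the replicative helicase, were each lower by a log2 fold change of −1.09. PCNA, the polymerase clamp, was lower by −0.11, while MCM7 (−0.04) and CDC6 (−0.05) passed no threshold. The part of these levels in the histone results was not tested.

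Replication-independent and variant histones, whose messages are polyadenylated in the usual way or, for H2AX, in part, included 7 lower (63.6%) and 2 higher genes (18.2%) of 11, with a median of −0.20. H1-10, a linker histone, was lower by a log2 fold change of −0.91 and H2AX, the variant phosphorylated at DNA breaks, by −0.57. MACROH2A1 was higher (0.32). H3-3A was lower (−0.20) and H3-3B had a log2 fold change of 0.05 (adjusted p = 0.236, edgeR), although both encode the variant H3.3. The 15 histone chaperones included 7 lower (46.7%) and 2 higher genes (13.3%), with a median of −0.11. DAXX, a chaperone of H3.3, was higher (0.24) and the RNA of its partner ATRX was lower (−0.55). The study describes ATRX as silenced in U-2 OS cells, and whether this RNA yields ATRX protein was not tested here. Beside the shares of both lists, 34.5% of all genes at 1 CPM or more were lower and 30.1% higher. Of the replication-dependent members at that level, 65.0% were lower. In the list of replication-independent and variant histones, 2 of the 11 genes passed no threshold. The part of these levels in the results for the replication-dependent members was not tested.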

How the data were processed

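RNA-seq of U-2 OS cells with a control siRNA or an siRNA against SFPQ was used, in 3 libraries per group taken from the labels. Per the labels and the study's methods, the authors made libraries of polyadenylated RNA, checked reads with FastQC, quantified them with STAR 2.7.9a on GRCh38 and deposited raw counts per Ensembl gene. The library kit was stranded; the strand setting of the counting is not given in the sources used here. No column of per-sample values was left unused.

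Names and spans came from GENCODE release 44 (GRCh38), which matched 99.67% of gene identifiers. The quasi-likelihood test of edgeR 4.0.16 (R 4.3.3) was run after TMM scaling, with no block, on the 29022 genes that held at least 10 counts in total, with the Benjamini-Hochberg adjustment over all of them. A gene was called at an adjusted p under 0.05, and past both thresholds where its log2 fold change was also over 1.5 in size. The script was checked on simulated data. The methods call the replicates biological; p-values measure the spread between these libraries, and intervals and floors cover counting error only.

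Members and lists were chosen with earlier results of these data known. Values in every library were given for the 3 members of each type with the highest mean CPM, for members past both thresholds, for the 3 lowest and 3 highest fold changes at a mean of at least 1 CPM, and for tested members outside chromosomes 6 and 1. Of the lists, SLBP, NPAT, LSM10, LSM11, CASP8AP2, ZNF473, HINFP, ERI1 and UPF1 and genes past both thresholds were named. Further list genes, and H2BC11, H2AC12, H4C11, H4C12 and H4C15, were chosen after their values were seen. The alternatives were filterByExpr, no filter, RLE size factors, library size alone, DESeq2 1.42.0, a replicate block, protein-coding genes only, each library left out, only members that overlap no other gene, without the top member, and only members of at least 1 CPM. Runs of 150 bases shared between members were counted in the annotated transcripts. 1 gene is not reported here and was left out of its list.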

Additional observations from a re-analysis of the deposited data

How the results depend on the processing

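The direction of every summed level and of the median held under each alternative tried. Of 15 lower members, 10 kept the call throughout (H1-2, H2AC6, H2AC11, H2AC20, H2BC4, H2BC5, H2BC11, H2BC21, H4C8 and H4C9). With library size alone, the log2 ratio of the sum was −0.35 for all members, −0.37 for H1, −0.43 for H2A, −0.25 for H3 and −0.38 for chromosome 6. Restricted to members that overlap no other gene, H2A gave −0.74, and without H1-2 the H1 sum gave −0.035. Without H2BC21, an alternative chosen after seeing the data, chromosome 1 gave −0.89. Leaving out 1 library gave 13 to 15 lower members, 0 to 2 higher, 0 to 1 lower and 0 to 1 higher past both thresholds, an H1 ratio of −0.47 to −0.39 and a median of −0.41 to −0.21. H4C5 ranged from −0.074 to 0.39 and changed sign without siCTRL replicate 1 (−0.074) or siSFPQ replicate 1 (−0.049), and H2BC15 ranged from −0.058 to 0.12 and changed sign without siSFPQ replicate 3 (−0.058). The number of higher members was 0 without siCTRL replicate 3 or siSFPQ replicate 1, and 2 without siSFPQ replicate 2. For 22 genes, the alternative fits gave 286 results in all, counting each gene in each fit. Of these results, 265 kept side and direction, 17 lost the call, 1 gained it and 3 changed sign. DESeq2 called 11 members lower in place of 15. Deviations of same-numbered libraries from their group means were only weakly correlated (0.0115, 0.0537 and 0.046). With 3 libraries per group this gave no sign of pairing, but it cannot exclude that same-numbered libraries were prepared together. With a replicate block, 15 members were lower, the median was −0.37 and no call among the 22 genes changed. The cause of these changes was not tested. Low counts limit what can be seen for the 25 untested members and for those under 1 CPM. The part of depth, of the polyadenylated library and of shared sequence in these low counts was not tested.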
